A study of Homo sapiens with 4 samples.

Results

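The integrated stress response was described here through 10 genes, namely ATF4, DDIT3 (which encodes CHOP), TRIB3, ASNS, CHAC1, PPP1R15A, SESN2, DDIT4, CEBPB and VLDLR. They were chosen by name, with earlier results of these data known. Every probe set whose annotation gives exactly 1 of these symbols was used, which gave 14 probe sets among the 41091 that name a single gene. These represent 10 of 19775 genes. HepG2 is an established human hepatoma line with hepatocyte features. The cells had been kept without serum (for 24 h in the series' design text, overnight in the sample labels), and were either untreated, at 0 h, or given 200 ng/ml of APRIL, a secreted cytokine related to tumour necrosis factor, for 2, 6 or 12 h. All 4 groups share the line and the serum starvation, and each is 1 Affymetrix U133 Plus 2.0 array of total RNA. No untreated array at 2, 6 or 12 h was used here, so treatment and time without serum cannot be told apart.

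The integrated stress response begins when 1 of several kinases phosphorylates the initiation factor eIF2-alpha, which slows translation of most mRNAs but favours that of ATF4. ATF4 then binds DNA as a dimer with C/EBP proteins and raises genes of amino acid supply, tRNA charging and, through CHOP, of cell death and of recovery of translation. Because ATF4 is controlled in large part at translation, its mRNA need not follow its activity. In liver cells the pathway responds to shortage of amino acids, to unfolded protein in the endoplasmic reticulum (ER), to haem shortage and to double-stranded RNA.

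At 12 h all 10 genes were higher than at 0 h. The median log2 ratio was 0.73, against 0.01 for all genes. PPP1R15A (2.49-fold) and DDIT4 (2.19-fold) passed 2-fold and DDIT3 stood just below it (1.99-fold). The way there differed. TRIB3, VLDLR, CEBPB and 1 of the 2 probe sets of ASNS were slightly higher at 2 h, clearly lower at 6 h and higher again at 12 h, whereas DDIT3, CHAC1, PPP1R15A, SESN2 and DDIT4 showed no such trough and that of ATF4 was shallow. Each time has a single array, so there are no replicates and nothing was tested, and every statement compares arrays.

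**Figure D1:**
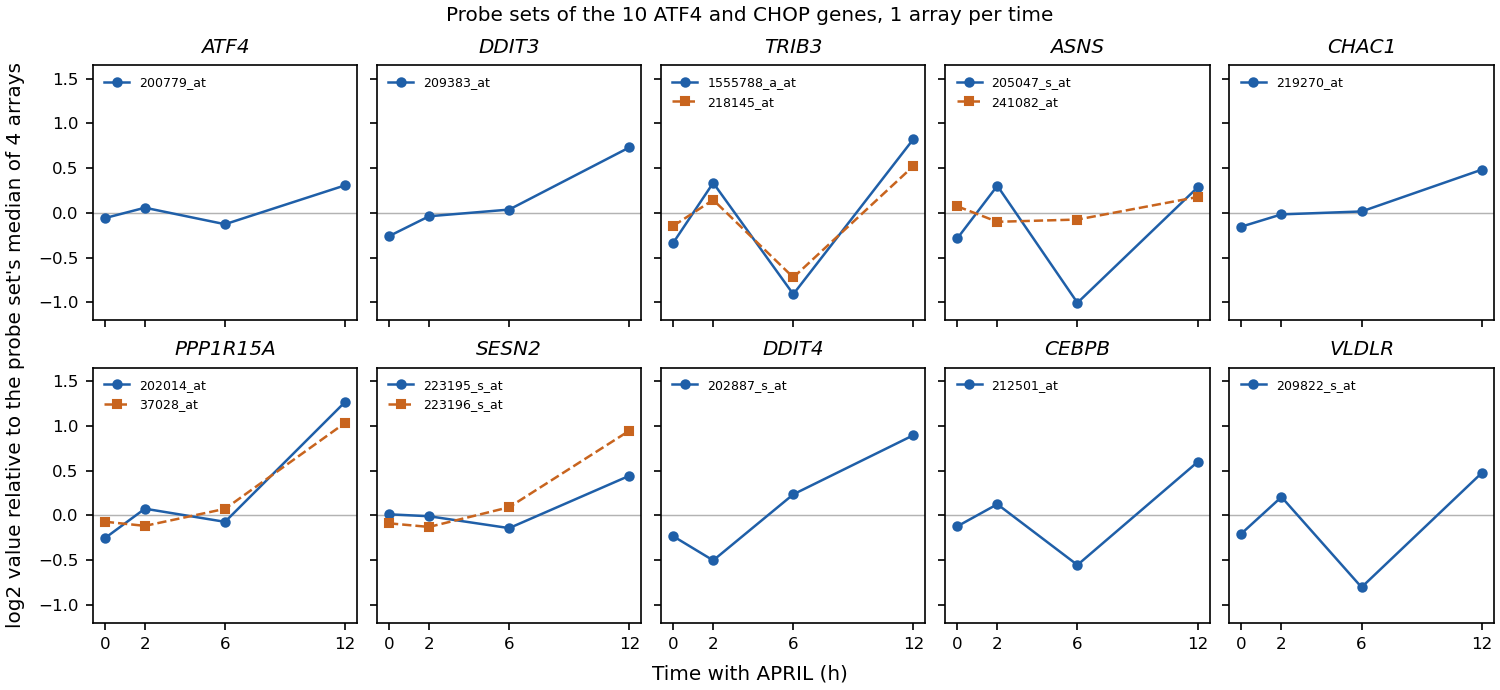
Log2 value of each probe set (y axis, relative to that probe set's median of the 4 arrays) against hours with APRIL (x axis), 1 panel per gene, 1 line per probe set, 1 array per point. The 12 h point is the highest of its line in 13 of the 14 probe sets, and the 6 h point is the lowest in 7, with the deepest troughs in TRIB3, ASNS (205047_s_at), CEBPB and VLDLR.

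The bases around the annotated starts of these genes show where the letters bound by ATF4 and its relatives occur. In RefSeq windows of the GRCh38.p14 build (250 bases before to 50 after each annotated start), all 10 genes had at least 1 window, 16 in all. The ATF4-C/EBP composite element was searched as TGATGNAA on both strands. It was found in windows of 2 of the 10 genes, ASNS and CHAC1, against 4.46% of all 27305 genes with a window. Of the genes for cytosolic tRNA synthetases induced through ATF4 (with XPOT, which exports tRNA from the nucleus), 7 of the 11 with a window held it. No match was found for EPRS1, LARS1, SARS1, WARS1, YARS1 or XPOT. The list holds 13 genes, so those without a match include genes without a window. The element was also held by 0 of 6 other cytosolic tRNA synthetases and 4 of 11 amino acid transport and synthesis targets of ATF4. For other ATF4 and CHOP targets it was 5 of 14, and for autophagy genes reported as such targets 0 of 12. Close relatives of the 10 genes held it in 2 of 10 (PPP1R15B and CEBPG), the same share as the 10 genes. It was 1 of 7 for eIF2-alpha kinases and their regulators, 1 of 15 for regulators of the growth kinase complex mTORC1 and 1 of 11 for p53 targets. No match was found among eIF2 and eIF2B subunits, ER chaperones or targets of hypoxia-inducible factor. The lines below show the element in every gene of the 10 and of the synthetase list induced through ATF4 whose window held it, whatever the gene's values (MARS1 was not read here). Each is the gene's own strand, 5′ to 3′, with the element in capitals.
ASNS, chr7:97872458-97872487: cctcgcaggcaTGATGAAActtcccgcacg
CHAC1, chr15:40953251-40953280: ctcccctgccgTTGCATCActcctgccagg
AARS1, chr16:70289675-70289704: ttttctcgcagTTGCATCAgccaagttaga
CARS1, chr11:3057407-3057436: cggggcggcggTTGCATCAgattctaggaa
GARS1, chr7:30594834-30594863: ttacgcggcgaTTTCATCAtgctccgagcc
IARS1, chr9:92293692-92293721: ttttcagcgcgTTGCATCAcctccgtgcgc
MARS1, chr12:57488053-57488082: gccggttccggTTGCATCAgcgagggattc
NARS1, chr18:57621804-57621833: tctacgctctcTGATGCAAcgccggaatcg
TARS1, chr5:33440956-33440985: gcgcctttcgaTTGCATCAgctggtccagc
The element starts 68 bases before the annotated start in ASNS and 209 before it in CHAC1. In CARS1 and MARS1 it begins 2 and 4 bases before the start and runs across it. In NARS1 and TARS1 it lies after the start. In ASNS and NARS1 it reads on the gene's strand, and in the other lines on the opposite strand. A match is a run of letters, not a measured binding site, and its absence from a window says nothing about bases elsewhere.

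PPP1R15A and DDIT3 carried other letters of the same protein family. PPP1R15A was the only one of the 10 genes whose window held the cyclic AMP response element TGACGTCA, which windows of 2.25% of all genes hold. It lay 58 bases before the start, and the shorter TGACGT, which it contains, also occurred alone at 152 bases before it. Windows of 9.64% of all genes hold the shorter letters, as did 1 of the 10. DDIT3 was the only one with the AP-1 site TGANTCA, at 241 bases before the start. Windows of 9.37% of all genes hold it, so 1 of 10 is near the background. Both stretches end before the start and are shown because PPP1R15A had the largest ratio at 12 h and DDIT3 encodes CHOP, with the matches in capitals.
PPP1R15A, chr19:48872251-48872390, plus strand: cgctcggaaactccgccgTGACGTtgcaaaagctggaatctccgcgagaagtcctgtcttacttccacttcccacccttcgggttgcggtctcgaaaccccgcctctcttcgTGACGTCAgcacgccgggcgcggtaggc
DDIT3, chr12:57520645-57520764, minus strand: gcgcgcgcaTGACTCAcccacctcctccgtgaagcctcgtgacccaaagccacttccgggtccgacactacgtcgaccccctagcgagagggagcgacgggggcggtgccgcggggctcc

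Values below are log2 values relative to each probe set's own median over the 4 arrays, so they compare times and hold no expression level. That the scale is log base 2, with higher values for more transcript, is taken from RMA, the authors' method, and is not stated with the values. A ratio is the difference of 2 such values, and a gene with 2 probe sets takes their median. As a yardstick, the robust SD of the ratio to 0 h over all genes was 0.16 at 2 h, 0.20 for the 6 h array and 0.24 for the 12 h array. It mixes measurement error with any true difference between the samples, and it includes genes that HepG2 may not express. Ratios over 0 h share the 0 h array, and the steps from 2 to 6 h and from 6 to 12 h share the 6 h array. The bacterial RNAs added to each array, read by 18 probe sets, had a median ratio of -0.35 at 12 h over 0 h, all 18 lower. Centred on them, every 12 h ratio over 0 h would be 0.35 higher and every 12 h ratio over 6 h 0.43 higher. The ratios given are therefore relative to the bulk of genes on each array. The presence of hepatocyte markers could not be checked without levels. Of 9 such genes 8 were read, and their median ratio was 0.01 at 2 h, 0.06 at 6 h and 0.02 at 12 h. The lowest and highest ratios were -1.60 and 0.39 on the 6 h array, and -1.08 and 0.46 on the 12 h array. The lowest on both was APOB, the main protein of very low density lipoprotein and the only one of the 8 past 2-fold. APOB is named after its values were seen.

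At the scaling used, ATF4, the transcription factor at the centre of the response, differed little between arrays at the mRNA level. Its single probe set read -0.06, 0.06, -0.13 and 0.31 at 0, 2, 6 and 12 h. The 12 h array was the highest and the other 3 lay close together. The log2 ratio at 12 h over 0 h was 0.37 (1.29-fold), and 2172 of the 19775 genes had a ratio at least as high. Across the processing settings this ATF4 ratio ran from 0.35 to 0.72, highest with centring on the bacterial RNAs, which raises every gene.

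DDIT3 encodes CHOP, a C/EBP family transcription factor raised by ATF4. At 0, 2, 6 and 12 h it read -0.26, -0.04, 0.04 and 0.73. The 12 h array was the highest, and most of the difference lay in the step from 6 to 12 h (0.69). At 12 h over 0 h the ratio was 0.99, and 192 of the 19775 genes (0.971%) had one at least as high.

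CEBPB encodes C/EBP-beta, a dimer partner of ATF4 and of CHOP. Its values in order of time were -0.12, 0.12, -0.56 and 0.60. The 6 h array was the lowest and the 12 h array the highest, with log2 ratios over 0 h of 0.25, -0.43 and 0.72 at 2, 6 and 12 h.

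TRIB3, a pseudokinase that binds ATF4 and CHOP and is raised by both, had the widest swing among the 10 genes. Its probe set 1555788_a_at read -0.34, 0.34, -0.91 and 0.83 at 0, 2, 6 and 12 h, and 218145_at read -0.15, 0.15, -0.72 and 0.52. Both put the 4 arrays in the same order, lowest at 6 h and highest at 12 h. The gene's ratio over 0 h was 0.48 at 2 h (SD 0.27 between the probe sets), -0.57 at 6 h (SD 0.0019) and 0.92 at 12 h (SD 0.35). From 6 to 12 h it was 1.49 (2.81-fold), a ratio reached by 35 of all genes (0.177%).

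ASNS, asparagine synthetase, is a textbook target of ATF4 in amino acid shortage. Probe set 205047_s_at read -0.28, 0.30, -1.004 and 0.28 at 0, 2, 6 and 12 h, with a deep trough at 6 h. Probe set 241082_at, for which the annotation gives no accession, read 0.07, -0.10, -0.07 and 0.18 and showed no trough. The 2 probe sets had opposite signs at 2 h over 0 h (0.59 and -0.17). The median ratio at 12 h, 0.34 (SD 0.33), was the lowest of the 10 genes.

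CHAC1, which degrades glutathione and is induced through ATF4 and CHOP, was read by 1 probe set. In order of time it read -0.15, -0.02, 0.02 and 0.48. The first 3 arrays lay within 0.17 of each other and the 12 h array above them, at a ratio over 0 h of 0.64 (1.55-fold).

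PPP1R15A (GADD34) recruits protein phosphatase 1 to eIF2-alpha and so reverses the block of translation. Probe set 202014_at read -0.26, 0.07, -0.07 and 1.27 at 0, 2, 6 and 12 h, and 37028_at read -0.07, -0.12, 0.07 and 1.03. Both set the 12 h array far above the other 3, whose order differed between them. The ratio at 12 h over 0 h was 1.31 (SD 0.30), the largest of the 10 genes, and 70 genes of all (0.354%) were at least as high.

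SESN2 (sestrin 2) and DDIT4 (REDD1) both restrain the growth kinase complex mTORC1. For SESN2, probe set 223195_s_at read 0.01, -0.01, -0.14 and 0.44 at 0, 2, 6 and 12 h, and 223196_s_at read -0.09, -0.13, 0.09 and 0.94. Only the 12 h array stood out in either, and the ratio over 0 h was 0.73 (SD 0.43). DDIT4 read -0.23, -0.50, 0.23 and 0.89. It was lower at 2 h than at 0 h (ratio -0.27) and then higher at each later time, with 0.47 at 6 h and 1.13 at 12 h. Its step from 2 to 6 h, 0.74, was reached by 114 of all genes (0.576%), while the same step was negative for 5 of the 10 genes.

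VLDLR, the very low density lipoprotein receptor, takes up triglyceride-rich lipoprotein and is raised by ATF4 in hepatocytes under ER stress. Its single probe set read -0.20, 0.20, -0.80 and 0.47 at 0, 2, 6 and 12 h. It was lowest at 6 h and highest at 12 h, like TRIB3, with log2 ratios over 0 h of 0.41, -0.60 and 0.68. At 2 h, 1.44% of all genes had a ratio at least as high as VLDLR, and 0.779% one at least as high as TRIB3.

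**Figure D2:**
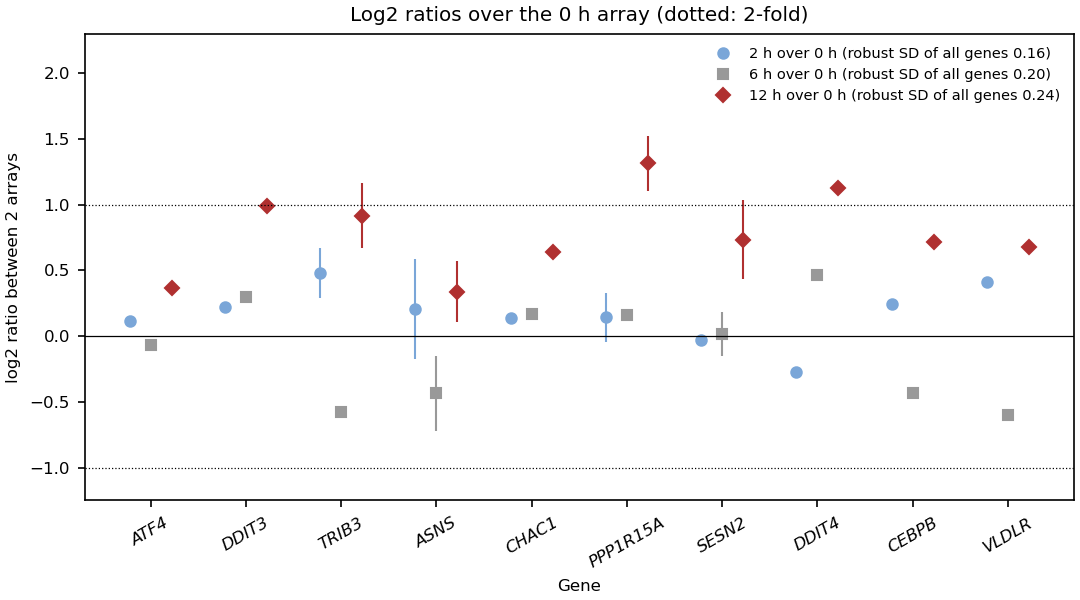
Log2 ratio over the 0 h array (y axis) for each of the 10 genes (x axis) at 2 h (circles), 6 h (squares) and 12 h (diamonds), with vertical lines from the lowest to the highest probe set. All 12 h diamonds lie above 0, from 0.34 for ASNS to 1.31 for PPP1R15A, and the 6 h squares lie on both sides, from -0.60 for VLDLR to 0.47 for DDIT4.

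At 2 h over 0 h, 8 of the 10 genes were above 0 and SESN2 and DDIT4 below, with a median of 0.17 against 0.02 for all genes. None of the 10 reached 2-fold in either direction, where 0.0354% of all genes lay higher and 0.0101% lower, or 1.5-fold, where 0.308% lay higher and 0.344% lower. At 6 h over 0 h, 5 were above and 5 below 0, the median was -0.03 against 0.05, and VLDLR alone was 1.5-fold lower or more, where 1.64% of all genes lay. None was 1.5-fold higher (1.15% of all genes), 2-fold higher (0.101%) or 2-fold lower (0.283%). At 12 h over 0 h, 2 of the 10 were 2-fold higher or more, against 0.946% of all genes, and 8 were 1.5-fold higher or more, against 4.46%. ATF4 and ASNS were the members short of 1.5-fold. None was lower than at 0 h. Of all genes 51.7% were above 0 and 0.986% were 2-fold lower or more.

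The trough was seen in the steps between arrays. From 2 to 6 h, TRIB3 (-1.06) and VLDLR (-1.01) were 2-fold lower or more, against 0.329% of all genes, and CEBPB (-0.68) and ASNS (-0.64) were also 1.5-fold lower or more, against 2.07%. DDIT4 alone was 1.5-fold higher or more, against 1.57%. From 6 to 12 h, TRIB3 (1.49), VLDLR (1.28), PPP1R15A (1.151) and CEBPB (1.150) were 2-fold higher or more, against 0.799%, and 8 of the 10 were 1.5-fold higher or more, against 3.51%. Both steps past 1.5-fold were met by 4 of the 10 genes (TRIB3, VLDLR, CEBPB and ASNS) and by 0.602% of all genes. This pair of steps was chosen after the values were seen. ASNS (smaller of the 2 steps 0.64) lay just inside the bound of 0.58, and the nearest gene outside it was ATF4 (0.18). ASNS met it through 205047_s_at only. A value of the 6 h array that is low for any reason gives both steps at once.

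**Figure D3:**
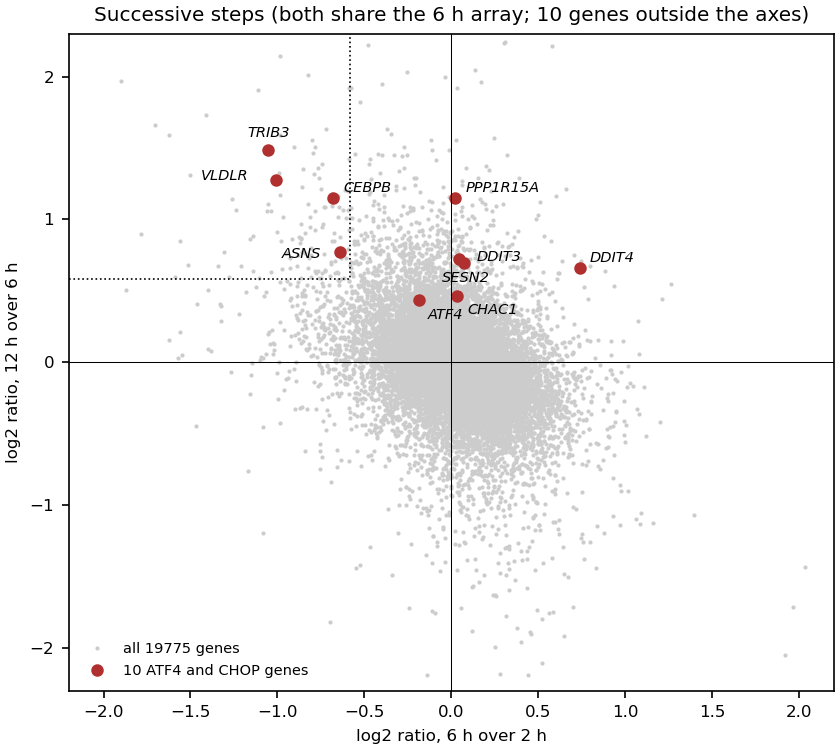
Log2 ratio of 12 h over 6 h (y axis) against that of 6 h over 2 h (x axis) for all 19775 genes (grey; 10 lie outside the axes) and the 10 named genes (red). Dotted lines mark 1.5-fold lower and then 1.5-fold higher, a corner that holds TRIB3, VLDLR, CEBPB and ASNS. Both axes use the 6 h array.

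The nearest pattern to each gene was sought by Euclidean distance over the 3 ratios to 0 h. Among the 10 genes, VLDLR and CEBPB were nearest to each other (distance 0.24), CHAC1 and SESN2 were nearest to each other (0.25), and so were DDIT3 and PPP1R15A (0.36). Many genes outside the 10 lay nearer still, with 708 nearer to CHAC1 than SESN2 was, 223 nearer to SESN2 than CHAC1 was, 304 nearer to DDIT3 than PPP1R15A was and 21 nearer to CEBPB than VLDLR was. ATF4 had 4724 genes nearer than CHAC1, its closest member. The nearest to TRIB3 was VLDLR (0.25), and only 4 genes of all measured lay nearer to TRIB3. These were NOX3, TMEM268, SLC51B and PDGFRB, each read by 1 probe set, at distances from 0.15 to 0.25. The nearest to DDIT3 among all genes were SLC26A11, MAFG, EFNA1, RANGRF and ITIH3, at distances from 0.05 to 0.08. The 3 ratios share the 0 h array, so a distance rests on 4 arrays.

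Upstream of ATF4, the genes of the eIF2-alpha kinases and their regulators showed no common direction at the scaling used. Of 9 read, 4 were above 0 at 12 h with a median of -0.09, against 7 of 9 and 0.27 when centred on the bacterial RNAs. That centring adds 0.35 to the 12 h ratio of every gene over 0 h, so more of all genes lie above 0 as well. At the scaling used, none passed 2-fold at any time over 0 h. PPP1R15B, the constitutive counterpart of PPP1R15A, was at 0.88, EIF2AK4 (GCN2, the kinase that senses uncharged tRNA) at -0.65, and IMPACT, an inhibitor of GCN2, at -0.81. At 2 h their largest ratios were -0.25 for DNAJC3, 0.24 for PPP1CA and -0.19 for EIF2AK2. The 8 subunits of eIF2 and its exchange factor eIF2B had a median of 0.15 at 12 h, with EIF2B1 at -0.52, EIF2B2 at 0.40 and EIF2B4 at 0.39. At 2 h EIF2B2 was at 0.24, EIF2B4 at 0.19 and EIF2S2 at 0.17.

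The cytosolic tRNA synthetases known to be induced through ATF4, with XPOT, lay above, below and again above the 0 h array, as TRIB3 did. All 12 read were above 0 at 2 h (median 0.21), all 12 below 0 at 6 h (median -0.23) and 11 of 12 above 0 at 12 h (median 0.53). Over all genes, 53.5% were above 0 at 2 h, 59.6% at 6 h and 51.7% at 12 h. At 2 h the largest were SARS1 at 0.54, GARS1 at 0.43 and AARS1 at 0.40. At 12 h SARS1 was at 1.15 (SD 0.082 over 2 probe sets), the only one past 2-fold, followed by CARS1 at 0.81 (SD 0.55 over 4, 1 of them below 0) and WARS1 at 0.74 (SD 0.011 over 2). EPRS1, at -0.26, was the one below 0. The other cytosolic tRNA synthetases, 6 of which were read, had medians of 0.05, 0.11 and 0.24. FARSA was at 0.35 at 2 h and 0.53 at 12 h, HARS1 at 0.29 and 0.31, FARSB at -0.19 at 2 h, and RARS1 at -0.38 at 12 h. The difference between the 2 lists was not tested.

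Amino acid transport and synthesis genes controlled by ATF4 had a similar course. Of 16 read, 13 were above 0 at 2 h, 4 at 6 h and 14 at 12 h, with medians of 0.24, -0.18 and 0.45. The glutamine and neutral amino acid transporter SLC1A5 was at 0.64 at 2 h and 0.91 at 12 h. SLC7A11, the cystine transporter, was at 0.47 at 2 h and -1.505 at 6 h (SD 0.24 over 3 probe sets), the one member past 2-fold over 0 h, and PHGDH, which opens the serine pathway, was at 0.45 at 2 h. At 12 h SHMT2, a mitochondrial enzyme of serine and folate metabolism, was at 0.87 (SD 0.079 over 3) and SLC38A2 at 0.81 (SD 0.16 over 3). SLC38A2 was already at 0.58 at 6 h, against the direction of most of the list, and PSPH, the last enzyme of serine synthesis, was at -0.62 at 12 h.

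Among 18 other targets of ATF4 and CHOP that were read, 13 were above 0 at 12 h, with a median of 0.37 and 3 past 2-fold higher. These were ATF3, a stress-induced repressor, at 1.23, the secreted glycoprotein STC2 at 1.08 and the angiogenic factor VEGFA at 1.01 (SD 0.21 over 4 probe sets). Probe sets disagreed for ATF3 (SD 0.95 over 3, 1 of them at -0.04) and STC2 (SD 0.91 over 2, at 0.43 and 1.73). At 2 h the largest were CTH, which makes cysteine from cystathionine, at 0.53, NUPR1 at 0.48 and CEBPG, a dimer partner of ATF4, at 0.34. CTH was at -1.10 at 6 h (SD 0.11 over 2), the one gene of this list past 2-fold there.

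**Figure D4:**
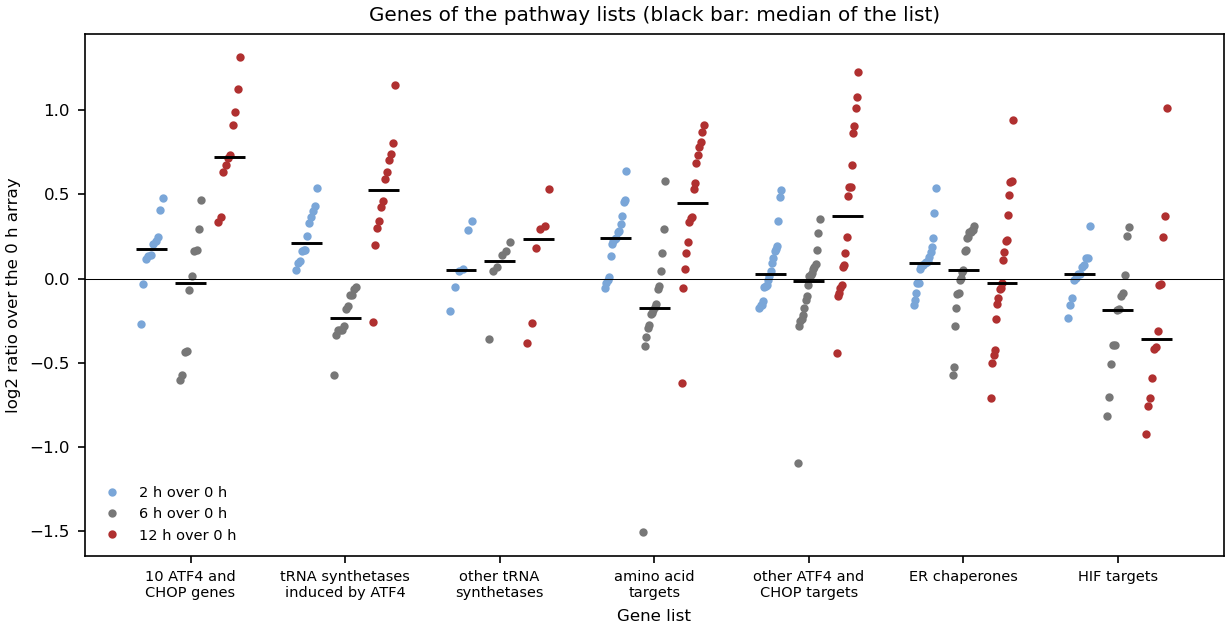
Log2 ratio over the 0 h array (y axis) of each gene in 7 lists (x axis) at 2 h (blue), 6 h (grey) and 12 h (red), with a black bar at the list's median. The synthetases induced by ATF4 lie above 0 at 2 h, below 0 at 6 h and, but for EPRS1, above 0 at 12 h, while ER chaperones have medians of 0.09, 0.05 and -0.03, the last 0.32 when centred on the bacterial RNAs. That centring adds 0.35 to the 12 h ratio of every gene.

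ER chaperones and other targets of XBP1 and ATF6, the other arms of the unfolded protein response, lay on both sides of 0 at each time. Of 19 read, 14, 12 and 9 were above 0 at 2, 6 and 12 h, and none passed 2-fold over 0 h. Their median of -0.03 at 12 h turned to 0.32 when arrays were centred on the bacterial RNAs, and those of the eIF2-alpha kinase list and of the p53 list turned to 0.27 and 0.35. The change in each is the 0.35 that this centring adds to every gene. At 2 h SDF2L1 was at 0.54, DNAJB9 at 0.39 and HYOU1 at 0.24, and at 12 h ATF6 was at 0.94, HYOU1 at 0.58 and CALR (calreticulin) at -0.71. HSPA5 (BiP), the main ER chaperone, was at 0.10, 0.24 and 0.11. DNAJB9, a co-chaperone of BiP, read 0.39, -0.58 and 0.57 (SD 0.061, 0.068 and 0.019 over 3 probe sets), with the order of arrays seen in TRIB3. Its 6 h and 12 h values are given after they were seen, and the difference between this list and the ATF4 lists was not tested.

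SESN2 is also a p53 target, and DDIT4 also a target of hypoxia-inducible factor (HIF). Of 11 p53 targets read, 5 were above 0 at 12 h and the median was -0.0035 (10 of 11 and 0.35 when centred on the bacterial RNAs). TP53I3 was at -0.54, ZMAT3 at 0.31 and CDKN1A (p21) at 0.28, and none of the 11 passed 2-fold over 0 h. At 2 h TP53I3 was at 0.28, BAX at 0.27 and SESN1 at -0.18. Of 12 HIF targets read, 3 were above 0 at 12 h with a median of -0.36 (6 of 12 and -0.0066 when centred on the bacterial RNAs), and VEGFA, which is on the ATF4 list too, was the only one past 2-fold. Centring on the bacterial RNAs adds 0.35 to the 12 h ratio of every gene, in these lists as elsewhere. PDK1 was at -0.92 and PGK1 at -0.75. At 2 h EGLN3 was at 0.31, PGK1 at -0.24 and BNIP3L at -0.16.

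By their medians over probe sets, close relatives of the 10 genes mostly lay apart from them at 12 h. SESN1 was at 0.01 and SESN3 at -0.13, beside 0.73 for SESN2, and DDIT4L was at 0.30 beside 1.13 for DDIT4. TRIB1 was at 0.07 and TRIB2 at 0.45, beside 0.92 for TRIB3. The 3 probe sets of TRIB1 ran from 0.06 to 0.85, which overlaps the 0.67 to 1.16 of TRIB3. CHAC2 was at -0.45 and CHAC1 at 0.64. PPP1R15B, at 0.88, was the only relative at or past 1.5-fold higher. CEBPA, the main C/EBP factor of resting hepatocytes, was at -0.66, CEBPD at 0.37 and CEBPG at 0.54, beside 0.72 for CEBPB. The 2 probe sets of CEBPG, at 0.23 and 0.86, lay on both sides of CEBPB. ATF5 was at 0.07 beside 0.37 for ATF4. LRP8, a receptor related to VLDLR, was at -0.77, beside 0.68. These differences between genes were not tested.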

How the data were processed

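The deposited table holds log2 values of 4 arrays for 54675 probe sets, made by the authors with RMA (per the submitters' processing notes, no version given), and every probe set is centred on its own median (0 within 1e-06). Base 2 and the direction (higher means more transcript) are taken from RMA's usual scale and are not stated. Symbols came from the platform annotation, updated by gene identifier to RefSeq of GRCh38.p14. There were 41091 probe sets with 1 symbol, 1801 with several, 11721 without one and 62 controls. A gene's ratio is the median over its probe sets, computed with pandas 2.3.3. Fold thresholds stand in for a test, since each time has 1 array, whose number limits the precision. The computation was tested on simulated data. The 10 genes and the 12 pathway lists (153 further genes, 143 read) were chosen with earlier results of these data known. Genes named are, for each list, the 3 largest ratios at 2 h and at 12 h, those past 2-fold, the relatives, and the nearest patterns. Others are named after their values were seen (EPRS1, SLC38A2 at 6 h, PSPH, HSPA5). Alternatives were the mean or the widest-ranging probe set per gene, leaving out probe sets ending in _x_at or _s_at, centring on array medians or spike-ins, the mean of the other 3 arrays as reference, and thresholds of 1.5-fold and 3-fold.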

Additional observations from a re-analysis of the deposited data

How the results depend on the processing

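All 10 genes stayed above 0 at 12 h over 0 h under the other settings in which they could be read. Averaging the probe sets of a gene, or centring on array medians, moved no count of the 10 genes or of the 143 list genes by over 1.5 times and no median by more than the spread over all genes. Without probe sets ending in _x_at or _s_at, SESN2, DDIT4 and VLDLR have no value, ASNS rests on 241082_at (-0.17 at 2 h against the 0 h array, 0.025 in the step to 6 h), and of the 7 genes left 1 was 2-fold higher at 12 h and 1 was 2-fold lower from 2 to 6 h, with 2 list genes higher and 1 lower at 12 h. With the probe set of widest range, 4 of the 10 genes were 2-fold higher at 12 h and their median from 6 to 12 h was 1.003, while list genes past 2-fold numbered 1 up and 9 down on the 6 h array and 9 each way on the 12 h array. This choice favours large ratios by construction in every gene with several probe sets. Centred on the bacterial RNAs, 7 of the 10 genes were 2-fold higher at 12 h over 0 h (median 1.08) and 8 over 6 h (median 1.18), with 18 list genes higher over 0 h. This centring raises the 12 h ratio of every gene, by 0.35 over 0 h and by 0.43 over 6 h. The shares of all genes given at the main scaling therefore do not apply to these counts. Against the mean of the other 3 arrays, which includes the high 12 h array, the median of the 10 genes was -0.0575 at 2 h and -0.28 at 6 h, DDIT3 was at -0.21 and -0.11, 1 gene was 2-fold lower at 6 h and 2 list genes were 2-fold higher at 12 h. At 1.5-fold over 0 h, 1 of the 143 list genes was higher on the 2 h array, against 0.308% of all genes. The 6 h array had 1 list gene higher (1.15% of all genes) and 5 lower (1.64%). On the 12 h array 20 list genes were higher (4.46% of all genes) and 10 lower. No share of all genes was computed for those 10, so that count has no background. Of the 10 genes at that fold, 1 was lower at 6 h, 8 were higher at 12 h over 0 h, 1 was higher and 4 lower from 2 to 6 h, and 8 were higher from 6 to 12 h. At 3-fold, 0 of the 10 genes and 0 list genes were past the threshold over 0 h at any time, and 0 of the 10 in either step. The cause of these shifts was not tested beyond what each setting changes by construction. The share of all genes past 2-fold was computed at the main setting only, so 2-fold counts under the other settings have none beside them. The 3-fold counts have none either. No paired analysis was possible because each time has 1 array.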

Other observations

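Regulators of mTORC1 near sestrin and REDD1 lay at a median of 0.12 (log2 ratio, 12 h over 0 h), with 13 of 17 read above 0. None was past 2-fold at any time over 0 h. With centring on the bacterial RNAs, 17 of 17 were above 0 at 12 h and the median was 0.47. This setting adds 0.35 to the 12 h ratio of every gene, and the share of all genes above 0 under it was not computed. TSC1, which with TSC2 restrains mTORC1, was at 0.52, WDR59 at 0.51 and DEPDC5 at 0.36. At 2 h WDR24 was at 0.29, MTOR itself at 0.25 and WDR59 at 0.23. SESN1 was at 0.70 at 6 h and at 0.01 at 12 h, a course unlike that of SESN2, but it rests on 1 probe set.

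Autophagy genes reported as targets of ATF4 or CHOP had a median of 0.09 at 12 h, with 7 of 12 above 0 and none past 2-fold at any time over 0 h. Their direction at 12 h depended on the scaling, since 12 of 12 were above 0 (median 0.44) when centred on the bacterial RNAs. The same 0.35 is then added to every gene, and the share of all genes above 0 was not computed. MAP1LC3B (LC3B), the autophagosome marker, was at 0.55, GABARAPL2 at 0.40 and ATG16L1 at -0.34. The 2 probe sets of ATG16L1 had opposite signs, at -1.14 and 0.45 (SD 1.12). At 2 h SQSTM1 (p62) was at 0.29, MAP1LC3B at 0.28 and ATG3 at -0.25.

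Outside the 10 genes, the steps of 1.5-fold lower from 2 to 6 h and 1.5-fold higher from 6 to 12 h were both met by CTH, by SLC7A11, SLC3A2, SLC1A5 and MTHFD2 among amino acid genes, by the synthetase genes AARS1, GARS1 and SARS1, and by DNAJB9 among ER chaperone genes. No gene of the other 8 lists met both, and 0.602% of all genes did. The bound was chosen after the values were seen, and both steps use the same 6 h array.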
